A study of Saccharomyces cerevisiae with 10 samples.

Results

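The 26S proteasome was followed here through the transcripts of 33 genes of budding yeast, of 5449 genes measured: 7 genes of the alpha ring and 7 of the beta ring of the 20S core, 10 of the base and 8 of the lid of the 19S regulatory particle, and RPN4, which encodes their transcriptional activator. The genes were taken by name from a list, which was chosen with earlier results of these data known. Each of the 33 was read by 1 probe set. The arrays were 10 in number, 1 for each of 2 biological replicates of 5 genotypes, on an Affymetrix design that also holds probe sets of another yeast. PMA1e MKT1e cells carried evolved alleles of PMA1 and MKT1, and MDS3e MKT1e cells carried evolved alleles of MDS3 and MKT1. MDS3e and MKT1e cells each carried a single evolved allele, and Ancestral cells carried none. All strains were haploid, of the Sce3044 background, and free of other evolved alleles. All were harvested in logarithmic growth in defined medium with 0.25% dextrose at an OD600 near 0.2, after about 17 hours. No strain with PMA1e alone was analysed here, so the effect of PMA1e was read only beside MKT1e.

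The proteasome degrades proteins tagged with ubiquitin. Substrates are bound by ubiquitin receptors of the regulatory particle, stripped of ubiquitin by the lid, unfolded by a ring of ATPases in the base and threaded through the alpha ring into the core, where sites on the beta ring cut them. In S. cerevisiae, Rpn4 binds a shared element upstream of most proteasome genes and activates them together. Rpn4 is itself a short-lived substrate of the proteasome, so that transcript and protein levels of Rpn4 need not move together.

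Levels are given as log2 of the deposited intensity plus 16, and differences are on the same scale, so that 1 unit is a doubling. Probe sets differ in how strongly they bind, so differences are taken within a gene, and levels of different genes serve only to place them roughly among all genes or against background. All 33 genes lay above the background limit of 4.20 on all 10 arrays. Replicate arrays correlated at r from 0.996 to 0.998 across genes. The median SD of the 33 genes between replicates was 0.021 in PMA1e MKT1e, 0.037 in MDS3e MKT1e, 0.037 in MDS3e, 0.035 in MKT1e and 0.067 in Ancestral, so that the Ancestral pair was the noisiest. The a-cell markers MFA1, MFA2, STE2, STE6 and BAR1 averaged 8.85 to 10.76, while the alpha-factor genes MF(ALPHA)1 and MF(ALPHA)2 averaged 4.28 and 4.40, near background. The markers STE3 and SAG1 of alpha cells averaged 5.44 and 6.60, and the haploid genes GPA1, STE4, STE18, RME1 and HO averaged 7.01 to 9.04. Cultures were read whole, so a change in the share of cells in some state and a change in RNA per cell cannot be told apart.

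Transcripts of the proteasome moved little among the 5 genotypes. The largest difference in the pairs of genotypes compared was 0.36 (RPN13, a 1.28-fold ratio). The farthest bound of the 95% intervals of these differences was 0.51, or 1.43-fold, so no gene approached a doubling in a pair compared. MDS3e was not compared with MKT1e or with PMA1e MKT1e, and some genes had their widest gap of means in such a pair. For RPT5 that gap was 0.49, between MDS3e and PMA1e MKT1e, and no interval was fitted for it. In limma's F-test among the 5 genotypes, 14 of the 33 genes (42.4%) passed an adjusted p of 0.05, where 55% of all genes passed. The 14 genes were unevenly placed: 7 of 8 lid genes, 4 of 7 alpha ring genes, 3 of 10 base genes and none of the 7 beta ring genes passed. The 4 alpha ring genes were SCL1, PRE9, PRE6 and PRE10, the 3 base genes were RPT2, RPT5 and RPN13, and RPN7 was the lid gene that did not pass. The genotype with the highest mean was MDS3e for 16 genes, Ancestral for 9, MKT1e for 4, MDS3e MKT1e for 3 and PMA1e MKT1e for RPN4 only. The lowest mean was in PMA1e MKT1e for 13 genes, in MDS3e MKT1e for 8, in MKT1e for 7, in Ancestral for 3 and in MDS3e for 2. These orders were not counted over all genes, so they have no general share beside them. In MDS3e against Ancestral, 22 of the 33 genes were positive, where 3079 of all 5449 genes were.

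**Figure D1:**
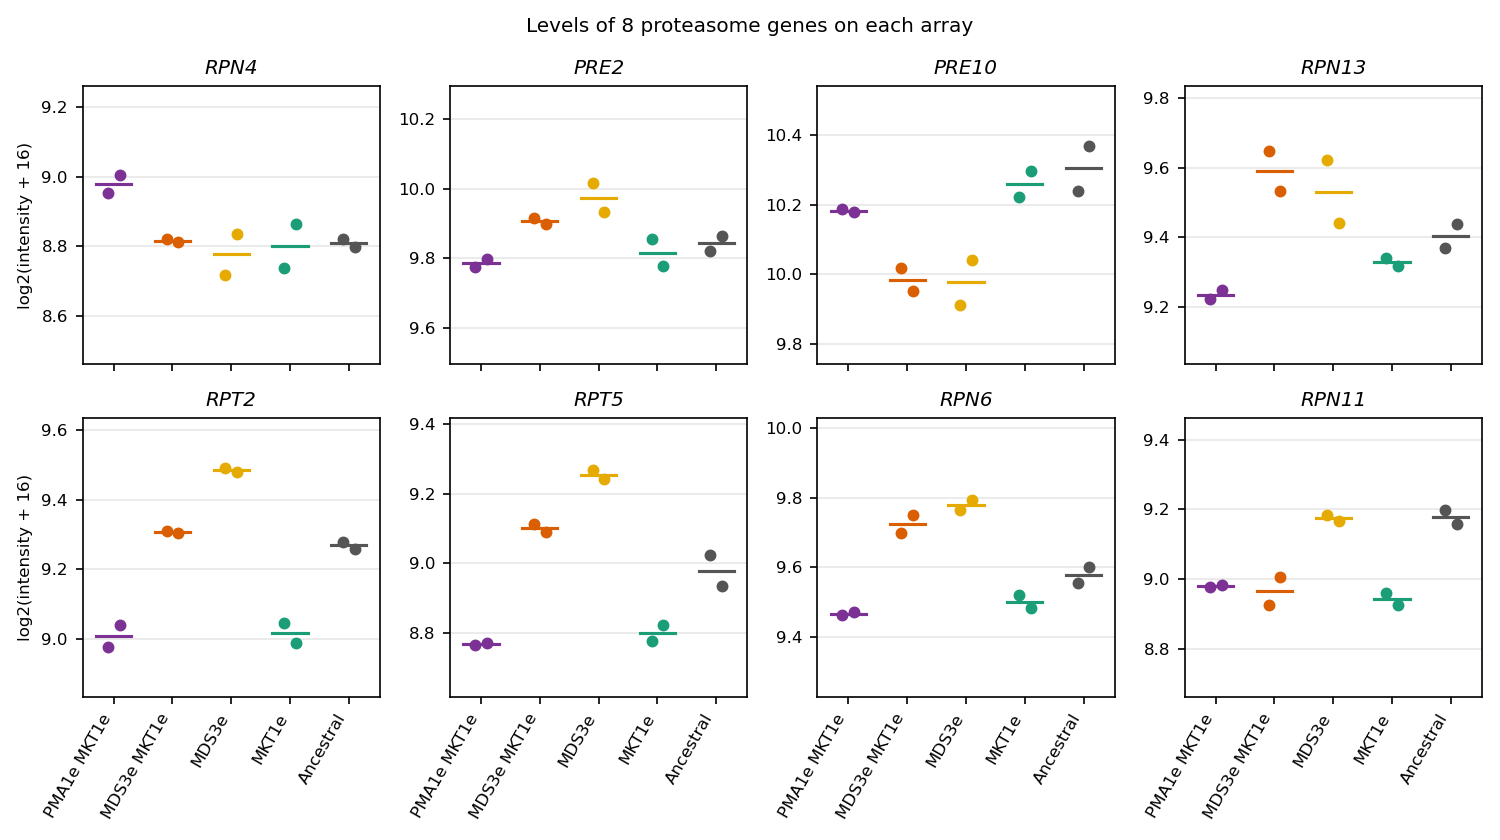
Level of 8 proteasome genes on each array (log2 of intensity plus 16), with points for single arrays, short lines for the genotype mean of 2 arrays, and genotypes from PMA1e MKT1e on the left to Ancestral on the right. RPT2 and RPT5 sit highest in MDS3e and lowest in PMA1e MKT1e and MKT1e, while PRE10 sits lowest in the 2 strains with MDS3e and RPN4 highest in PMA1e MKT1e.

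Across the pairwise comparisons, each read from 1 limma fit with Benjamini-Hochberg adjustment over all genes, proteasome genes were called no more often than genes at large when both directions are counted together. In MKT1e against Ancestral, 0 genes rose and 3 fell, where 11.8% of all genes rose, 8.48% fell and 20.3% were called in all. In MDS3e against Ancestral, 4 rose and 2 fell, against 14.5% and 10.7% of all genes, or 25.2% in all. In MDS3e MKT1e against Ancestral, 2 rose and 6 fell, against 21.9% and 16.7% of all genes, or 38.7% in all. These shares of the 33 genes were 9.09%, 18.2% and 24.2%, each below that of all genes. In PMA1e MKT1e against Ancestral, 0 rose and 5 fell, against 14.3% and 7.32% of all genes, or 21.6% in all. MDS3e MKT1e against MDS3e gave 0 that rose and 3 that fell, against 11% and 6.24% of all genes, or 17.2% in all. MDS3e MKT1e against MKT1e gave 6 that rose and 2 that fell, against 15% and 11.5% of all genes, or 26.4% in all. Again the shares of the 33 genes, 15.2%, 9.09% and 24.2%, were not above those of all genes. PMA1e MKT1e against MDS3e MKT1e gave 2 that rose and 8 that fell, against 15.3% and 16.1% of all genes, or 31.4% in all. Falls alone made up a larger share of the 33 genes than of all genes in 5 comparisons. They were 9.09% of the list in MKT1e, 18.2% in MDS3e MKT1e and 15.2% in PMA1e MKT1e against Ancestral, 9.09% in MDS3e MKT1e against MDS3e and 24.2% in PMA1e MKT1e against MDS3e MKT1e. Of the 634 genes within the subunits' range of level, 80, 159, 114, 69 and 110 fell in the same 5 comparisons. These were larger shares than those of the 33 genes in all but the last. Rises alone made up a larger share of the 33 genes than of all genes in MDS3e MKT1e against MKT1e, with 18.2% of the list. There 69 of the 634 genes rose. PMA1e MKT1e against MKT1e gave 0 by limma, with 1 gene at an unadjusted p under 0.05, where 0.0184% of all genes were called. The interaction of MDS3e and MKT1e gave 0 by limma, with 0 at an unadjusted p under 0.05, where 0.385% of all genes were called.

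The median difference of the 33 genes was -0.07 in MKT1e against Ancestral, where that of all genes was -0.01, and 0.06 in MDS3e against Ancestral, where that of all genes was 0.03. It was 0.02 in MDS3e MKT1e and -0.07 in PMA1e MKT1e against Ancestral, where those of all genes were 0.03 and 0.01. The 634 genes within the subunits' range of level had medians of -0.04, 0.01, -0.02 and -0.07 in the same order of comparisons. By sign, 29 of the 33 genes were negative in PMA1e MKT1e and 27 in MKT1e against Ancestral, where 2639 and 2852 of all 5449 genes were. Of the 634 genes within the range of level of the subunits, 412 and 378 were negative in the same 2 comparisons. Of the 33 genes, 5 were in the highest of 10 equal classes of all genes by level, 27 in the class below it and 1 in the next. That highest class had a median difference of -0.15 in MDS3e and -0.20 in MDS3e MKT1e against Ancestral, while the class below it had 0.02 and -0.01, and the part of this in the results was not tested.

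The counts rested on few arrays. In MKT1e against Ancestral, 0 genes were called without MKT1e replicate 2 and 7 without Ancestral replicate 2. In MDS3e against Ancestral, 1 was called without MDS3e replicate 1 and 3 without MDS3e replicate 2. In MDS3e MKT1e against Ancestral, 3 were called without MDS3e MKT1e replicate 1, and 5 without its replicate 2 or without either PMA1e MKT1e array. The last value shows that arrays outside a comparison counted too, because all arrays share 1 estimate of the spread. In PMA1e MKT1e against Ancestral, 2 were called without PMA1e MKT1e replicate 1 or without Ancestral replicate 1, and 1 without PMA1e MKT1e replicate 2. In MDS3e MKT1e against MDS3e, 0 were called without MDS3e MKT1e replicate 1 or without either MDS3e array. In MDS3e MKT1e against MKT1e, 5 were called without MDS3e MKT1e replicate 1, 3 without its replicate 2 and 2 without MKT1e replicate 2. A single array could thus take away most of the calls of a comparison. In PMA1e MKT1e against MDS3e MKT1e, 4, 5, 6 and 4 were called without PMA1e MKT1e replicate 1, its replicate 2, MDS3e MKT1e replicate 1 and its replicate 2. The split of calls also moved with the scaling. After centring each array on its median, the calls were 2 higher and 2 lower in MDS3e against Ancestral, 0 higher and 8 lower in MDS3e MKT1e against Ancestral, and 2 higher and 3 lower in MDS3e MKT1e against MKT1e. After quantile normalization they were 4 higher and 1 lower, 4 higher and 5 lower, and 4 higher and 2 lower in the same 3 comparisons. The scaling moved the split over all genes too. It was 790 higher and 585 lower, 1196 and 911, and 815 and 625 as deposited. Median centring gave 504 and 845, 785 and 1423, and 465 and 912, and quantile normalization gave 547 and 559, 894 and 959, and 518 and 567.

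**Figure D2:**
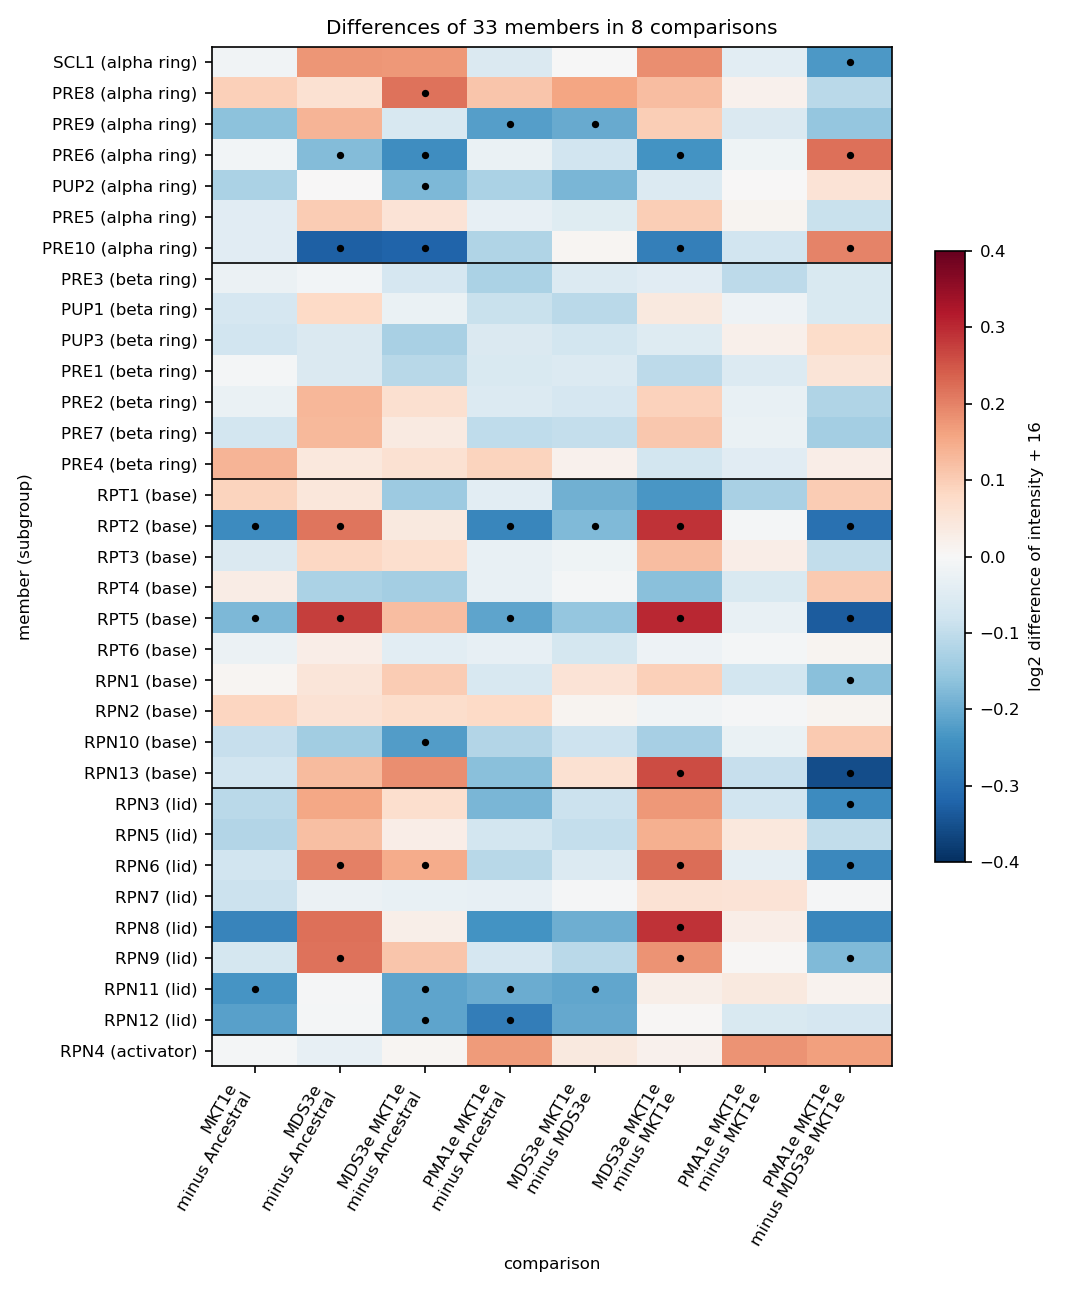
Difference in log2 units for the 33 genes (rows, grouped by subcomplex) in 8 comparisons of genotypes (columns), with marks where limma's adjusted p was under 0.05. Marks fall on the alpha ring, base and lid, and none falls on the beta ring or RPN4.

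RPN4, the activator, was the only 1 of the 33 genes with its highest mean in PMA1e MKT1e. It read 8.95 and 9.00 in PMA1e MKT1e, 8.82 and 8.81 in MDS3e MKT1e, 8.72 and 8.84 in MDS3e, 8.74 and 8.86 in MKT1e, and 8.82 and 8.80 in Ancestral. Both PMA1e MKT1e arrays lay above all 8 other arrays, which overlapped among themselves. Even so, RPN4 did not pass limma's F-test (adjusted p = 0.0825). The difference was 0.17 ± 0.06 (SE) between PMA1e MKT1e and Ancestral, with a 95% interval of 0.03 to 0.31 and a limma adjusted p of 0.0800. Between PMA1e MKT1e and MKT1e it was 0.18 ± 0.06, with an unadjusted p of 0.016 and a limma adjusted p of 0.37. RPN4 was the 1 gene at an unadjusted p under 0.05 in that comparison. Between PMA1e MKT1e and MDS3e MKT1e it was 0.16 ± 0.06 (limma adjusted p = 0.0707), and here the adjusted p fell below the threshold under 3 other settings: 0.0491 with 64 added to the intensity, 0.0263 after quantile normalization and 0.049 in a fit of those 2 genotypes alone. Without PMA1e there was little movement: the difference from Ancestral was 0.01 in MDS3e MKT1e, -0.03 in MDS3e and -0.01 in MKT1e, with limma adjusted p of 0.942, 0.755 and 0.938. Of the 32 subunit genes, 13 had their lowest mean in PMA1e MKT1e. That count was not made over all genes, and 0 of the 32 were called between PMA1e MKT1e and MKT1e. Whether it bears on the level of RPN4 was not tested.

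The beta ring, which carries the cutting sites, held no gene that passed a test. No member of the ring was called by limma in any comparison, and at an unadjusted p under 0.05 the count was 0 in every comparison except MDS3e against Ancestral, where it was 1. PRE3, the caspase-like subunit, read 9.73 and 9.83 in PMA1e MKT1e, 9.93 and 9.75 in MDS3e MKT1e, 9.85 and 9.94 in MDS3e, 9.85 and 9.92 in MKT1e, and 9.84 and 9.97 in Ancestral. PUP1, the trypsin-like subunit, read 9.37 and 9.47 in PMA1e MKT1e, 9.42 and 9.54 in MDS3e MKT1e, 9.63 and 9.55 in MDS3e, 9.38 and 9.50 in MKT1e, and 9.47 and 9.54 in Ancestral. For both genes the replicates of a genotype were spread about as widely as the genotypes. PRE2, the chymotrypsin-like subunit, read 9.77 and 9.80 in PMA1e MKT1e, 9.92 and 9.90 in MDS3e MKT1e, 10.01 and 9.93 in MDS3e, 9.85 and 9.78 in MKT1e, and 9.82 and 9.86 in Ancestral. It was the beta ring gene at an unadjusted p under 0.05, with a difference of 0.13 ± 0.05 between MDS3e and Ancestral, a 95% interval of 0.01 to 0.25 and a limma adjusted p of 0.108. Over the ring, 95% intervals of the differences from Ancestral ran no farther than -0.30 (PRE3 in PMA1e MKT1e) and 0.30 (PRE4 in MKT1e).

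In the alpha ring, the gate through which substrates enter the core, 2 genes were low in the strains with MDS3e. PRE10, the alpha 7 subunit, read 10.19 and 10.18 in PMA1e MKT1e, 10.02 and 9.95 in MDS3e MKT1e, 9.91 and 10.04 in MDS3e, 10.22 and 10.30 in MKT1e, and 10.24 and 10.37 in Ancestral. The 4 arrays with MDS3e lay below the 6 without it. PRE10 fell by 0.33 ± 0.07 in MDS3e against Ancestral (limma adjusted p = 0.00696), by 0.32 ± 0.07 in MDS3e MKT1e against Ancestral (0.00391) and by 0.27 ± 0.07 in MDS3e MKT1e against MKT1e (0.0137). The second of these held whichever array was left out. The first was lost without MDS3e replicate 1 (-0.26, adjusted p = 0.0632), and the last without MDS3e MKT1e replicate 2 (-0.24, 0.0879) or MKT1e replicate 2 (-0.24, 0.0978). PRE10 rose by 0.20 ± 0.07 in PMA1e MKT1e against MDS3e MKT1e (0.0436), a call lost without any array of those 2 genotypes or of MKT1e (adjusted p from 0.0525 to 0.198) and after quantile normalization (0.0539).

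PRE6, the alpha 4 subunit, was split between the same genotypes. It read 10.17 and 10.19 in PMA1e MKT1e, 9.97 and 9.94 in MDS3e MKT1e, 10.07 and 9.99 in MDS3e, 10.19 and 10.20 in MKT1e, and 10.15 and 10.26 in Ancestral. Again the 4 arrays with MDS3e were the lowest. PRE6 fell by 0.25 ± 0.06 in MDS3e MKT1e against Ancestral (limma adjusted p = 0.00673), a call kept under every setting tried. It fell by 0.24 ± 0.06 in MDS3e MKT1e against MKT1e (0.0132), lost without MDS3e MKT1e replicate 2 (0.0771) or MKT1e replicate 2 (0.076) and after quantile normalization (-0.17, 0.0535). It rose by 0.22 ± 0.06 in PMA1e MKT1e against MDS3e MKT1e (0.0158), lost without either PMA1e MKT1e array (0.061 and 0.0932) or MDS3e MKT1e replicate 2 (0.0845). The fall of 0.17 ± 0.06 in MDS3e against Ancestral stood at the threshold (0.0494), and was kept only without Ancestral replicate 1: each of the other 9 omissions lost it, with adjusted p up to 0.25 without MDS3e replicate 2, and so did quantile normalization (-0.12, 0.15). PRE6 and PRE10 are among the 5 genes of the list in the highest class of level, which had a negative median in both comparisons of MDS3e strains with Ancestral, and its part in their falls was not tested.

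The other alpha ring genes moved in other ways. PRE9, the alpha 3 subunit, is the ring's only subunit that yeast can live without. It read 9.29 and 9.23 in PMA1e MKT1e, 9.38 and 9.46 in MDS3e MKT1e, 9.64 and 9.59 in MDS3e, 9.31 and 9.33 in MKT1e, and 9.49 and 9.48 in Ancestral. The 6 arrays with MKT1e lay below the 4 without it. PRE9 fell by 0.22 ± 0.05 in PMA1e MKT1e against Ancestral (limma adjusted p = 0.0148), lost without PMA1e MKT1e replicate 2 (0.119) or Ancestral replicate 1 (0.0512). It fell by 0.20 ± 0.05 in MDS3e MKT1e against MDS3e (0.0276), lost without MDS3e MKT1e replicate 1 (0.167) or either MDS3e array (0.159 and 0.0814). Single calls were made for 3 more. PRE8, alpha 2, rose by 0.22 ± 0.06 in MDS3e MKT1e against Ancestral (0.0116), lost without MDS3e MKT1e replicate 1 (0.0798) or Ancestral replicate 1 (0.0578) and after median centring (0.14, 0.107). PUP2, alpha 5, fell by 0.18 ± 0.06 in the same comparison (0.0444), lost without Ancestral replicate 2, MDS3e MKT1e replicate 1 or any PMA1e MKT1e or MDS3e array (0.062 to 0.251) and after quantile normalization (0.0522). SCL1, alpha 1, fell by 0.23 ± 0.08 in PMA1e MKT1e against MDS3e MKT1e (0.0402), lost without any array of those 2 genotypes or of MDS3e (0.0576 to 0.193) and after median centring (0.0886). PRE5, alpha 6, was not called in any comparison.

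In the base, the ATPases RPT2 and RPT5 were called in the same directions and carried 6 of the 10 calls of the list that were kept under every setting. RPT2, known for its part in opening the gate of the core, read 8.98 and 9.04 in PMA1e MKT1e, 9.31 and 9.30 in MDS3e MKT1e, 9.49 and 9.48 in MDS3e, 9.05 and 8.99 in MKT1e, and 9.28 and 9.26 in Ancestral. The 2 MDS3e arrays stood above all others, the 4 MKT1e arrays without MDS3e stood below all others, and MDS3e MKT1e and Ancestral lay between. RPT2 rose by 0.22 ± 0.05 in MDS3e against Ancestral (limma adjusted p = 0.0144) and by 0.29 ± 0.05 in MDS3e MKT1e against MKT1e (0.00331). It fell by 0.25 ± 0.05 in MKT1e against Ancestral (0.00631), by 0.18 ± 0.05 in MDS3e MKT1e against MDS3e (0.0379), by 0.26 ± 0.05 in PMA1e MKT1e against Ancestral (0.0047) and by 0.30 ± 0.05 in PMA1e MKT1e against MDS3e MKT1e (0.00222). RPT2 was thus called higher with MDS3e and lower with MKT1e, whether or not the other allele was present. Calls were kept under all settings for MDS3e MKT1e against MKT1e and for PMA1e MKT1e against Ancestral and against MDS3e MKT1e. The call for MKT1e against Ancestral was lost without MKT1e replicate 2 (-0.22, 0.0522). That for MDS3e against Ancestral was lost without either MDS3e array (0.0803 and 0.0639) or Ancestral replicate 2 (0.0568), and after median centring (0.16, 0.0521). That for MDS3e MKT1e against MDS3e was lost without any array of those genotypes or of PMA1e MKT1e (0.0559 to 0.158).

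RPT5 had the widest range of genotype means of the 33 genes, 0.49. It read 8.76 and 8.77 in PMA1e MKT1e, 9.11 and 9.09 in MDS3e MKT1e, 9.27 and 9.24 in MDS3e, 8.78 and 8.82 in MKT1e, and 9.02 and 8.93 in Ancestral. MDS3e arrays were highest, and those of MKT1e and PMA1e MKT1e were lowest, as for RPT2. RPT5 rose by 0.28 ± 0.05 in MDS3e against Ancestral (1.21-fold, limma adjusted p = 0.00578) and by 0.30 ± 0.05 in MDS3e MKT1e against MKT1e (1.23-fold, 0.0032), and fell by 0.33 ± 0.05 in PMA1e MKT1e against MDS3e MKT1e (0.00151). These 3 calls were kept under all settings. The fall of 0.21 ± 0.05 in PMA1e MKT1e against Ancestral (0.018) was lost without either PMA1e MKT1e array (0.0908 and 0.0899) or Ancestral replicate 1 (0.0942). The fall of 0.18 ± 0.05 in MKT1e against Ancestral (0.0379) was kept only without Ancestral replicate 2, and each of the other 9 omissions lost it (0.0514 to 0.175).

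RPN13, a ubiquitin receptor that docks on the base, was low in PMA1e MKT1e. It read 9.22 and 9.25 in PMA1e MKT1e, 9.65 and 9.53 in MDS3e MKT1e, 9.62 and 9.44 in MDS3e, 9.34 and 9.32 in MKT1e, and 9.37 and 9.44 in Ancestral. Both PMA1e MKT1e arrays lay below all 8 others. RPN13 fell by 0.36 ± 0.07 in PMA1e MKT1e against MDS3e MKT1e (limma adjusted p = 0.00425), kept under all settings. It rose by 0.26 ± 0.07 in MDS3e MKT1e against MKT1e (0.0203), lost without MDS3e MKT1e replicate 1 (0.122) or either MKT1e array (0.0567 and 0.103) and after median centring (0.0616). RPN10, another ubiquitin receptor, fell by 0.22 ± 0.06 in MDS3e MKT1e against Ancestral (0.0126), lost without MDS3e MKT1e replicate 2 or Ancestral replicate 2. RPN1, a scaffold that holds receptors and the deubiquitinase Ubp6, fell by 0.17 ± 0.05 in PMA1e MKT1e against MDS3e MKT1e (0.0297), lost without any array of those 2 genotypes (0.0996 to 0.13) and after median centring (0.0846). RPN2, the other scaffold, and the ATPases RPT1, RPT3, RPT4 and RPT6 were not called in any comparison. RPT6 had the smallest range of genotype means of the 33 genes, 0.07. RPT1 read 9.46 and 9.94 in Ancestral, a gap wider than the range of its genotype means, 0.23, so a change in RPT1 against Ancestral could be read only coarsely. The 6 ATPases form a ring with 1 copy of each, and 2 of them were called and 4 were not. A missing call does not show an unchanged level, and the 4 were not tested against RPT2 and RPT5. Genes called in at least 1 comparison were not counted over all genes, so this count has no general share beside it.

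The lid had the largest share of genes that passed the F-test, 7 of 8, and in 4 comparisons its genes shared their signs. All 8 differences were negative in MKT1e against Ancestral, in PMA1e MKT1e against Ancestral and in MDS3e MKT1e against MDS3e, and all 8 were positive in MDS3e MKT1e against MKT1e. In the other comparisons of genotypes the signs were mixed, with 5 positive and 3 negative in MDS3e against Ancestral, in MDS3e MKT1e against Ancestral and in PMA1e MKT1e against MKT1e, and 1 positive and 7 negative in PMA1e MKT1e against MDS3e MKT1e. Of the 634 genes within the subunits' range of level, 378 were negative in MKT1e against Ancestral, 412 in PMA1e MKT1e against Ancestral and 402 in MDS3e MKT1e against MDS3e, and 315 were positive in MDS3e MKT1e against MKT1e. The shared signs of the lid did not hold under every setting. In MDS3e MKT1e against MKT1e, 5 of 8 differences were positive after median centring, 6 after quantile normalization, 7 without MDS3e MKT1e replicate 1 and 6 without its replicate 2. In MDS3e MKT1e against MDS3e, 7 of 8 were negative after quantile normalization and without replicate 2 of either genotype, and in PMA1e MKT1e against Ancestral 7 were negative without Ancestral replicate 2. The median difference of the 8 was -0.11 in MKT1e against Ancestral, -0.15 in PMA1e MKT1e against Ancestral, -0.10 in MDS3e MKT1e against MDS3e and 0.16 in MDS3e MKT1e against MKT1e. The 634 genes within the subunits' range of level had medians of -0.04, -0.07, -0.06 and -0.0009 in the same order. Calls were fewer, with 1, 2, 1 and 3 of the 8 genes in the same 4 comparisons. These were 12.5%, 25%, 12.5% and 37.5% of the lid, where 20.3%, 21.6%, 17.2% and 26.4% of all genes were called. RPN11, the deubiquitinase that releases ubiquitin from substrates, read 8.98 and 8.98 in PMA1e MKT1e, 8.93 and 9.01 in MDS3e MKT1e, 9.18 and 9.17 in MDS3e, 8.96 and 8.93 in MKT1e, and 9.20 and 9.16 in Ancestral. The 6 arrays with MKT1e lay below the 4 without it. RPN11 fell by 0.24 ± 0.05 in MKT1e (limma adjusted p = 0.00991), by 0.21 ± 0.05 in MDS3e MKT1e (0.00957) and by 0.20 ± 0.05 in PMA1e MKT1e (0.0217), each against Ancestral, and by 0.21 ± 0.05 in MDS3e MKT1e against MDS3e (0.0206). The first 2 were lost only without MKT1e replicate 2 (0.0643) and MDS3e MKT1e replicate 1 (0.0706) among the omissions. The comparison of PMA1e MKT1e lost its call without either of its arrays (0.103 and 0.105) or Ancestral replicate 1 (0.0852). That of MDS3e MKT1e against MDS3e lost it without MDS3e MKT1e replicate 1 (0.141) or either MDS3e array (0.112 and 0.0912).

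RPN6, which clamps the lid to the core, and RPN9 were higher with MDS3e. RPN6 read 9.46 and 9.47 in PMA1e MKT1e, 9.70 and 9.75 in MDS3e MKT1e, 9.76 and 9.79 in MDS3e, 9.52 and 9.48 in MKT1e, and 9.55 and 9.60 in Ancestral. The 4 arrays with MDS3e lay above the 6 without it. RPN6 fell by 0.26 ± 0.05 in PMA1e MKT1e against MDS3e MKT1e (limma adjusted p = 0.00461), kept under all settings. It rose by 0.20 ± 0.05 in MDS3e against Ancestral (0.0187), lost without either MDS3e array (0.0701 and 0.1) or Ancestral replicate 1 (0.0566), and by 0.22 ± 0.05 in MDS3e MKT1e against MKT1e (0.0111), lost without MDS3e MKT1e replicate 2 (0.073) or MKT1e replicate 2 (0.0764). Both rises missed the threshold after median centring (0.0835 and 0.0606). The rise of 0.15 ± 0.05 in MDS3e MKT1e against Ancestral (0.0434) was lost without any 1 of the 10 arrays (0.0549 to 0.189), and median centring reduced it to 0.06. RPN9 read 9.05 and 9.07 in PMA1e MKT1e, 9.22 and 9.25 in MDS3e MKT1e, 9.36 and 9.32 in MDS3e, 9.07 and 9.04 in MKT1e, and 9.14 and 9.11 in Ancestral, with the same 4 arrays on top. It rose by 0.22 ± 0.05 in MDS3e against Ancestral (0.0128), lost without MDS3e replicate 1 (0.0872) or Ancestral replicate 2 (0.0569). It rose by 0.18 ± 0.05 in MDS3e MKT1e against MKT1e (0.0251) and fell by 0.18 ± 0.05 in PMA1e MKT1e against MDS3e MKT1e (0.0238), and each of these was lost without any array of the 2 genotypes compared (0.0567 to 0.13). Median centring also lost both (0.127 and 0.0516), and quantile normalization lost the first (0.0624).

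Another 3 lid genes were called less often, and 2 were not called in any comparison. RPN8, the partner of RPN11 in the lid, read 9.44 and 9.38 in PMA1e MKT1e, 9.69 and 9.66 in MDS3e MKT1e, 9.88 and 9.85 in MDS3e, 9.51 and 9.26 in MKT1e, and 9.79 and 9.51 in Ancestral. The MKT1e and Ancestral pairs were spread widely, and the Ancestral pair spanned both MDS3e MKT1e arrays. RPN8 rose by 0.29 ± 0.10 in MDS3e MKT1e against MKT1e (limma adjusted p = 0.0497), a call lost without MKT1e replicate 2 (0.16, 0.337) and without any array of PMA1e MKT1e, MDS3e MKT1e or MDS3e (0.0683 to 0.166), and also after median centring (0.072) or quantile normalization (0.0746). RPN12 read 9.12 and 9.08 in PMA1e MKT1e, 9.14 and 9.19 in MDS3e MKT1e, 9.39 and 9.35 in MDS3e, 9.16 and 9.17 in MKT1e, and 9.49 and 9.26 in Ancestral. It fell by 0.28 ± 0.07 in PMA1e MKT1e against Ancestral (0.0191) and by 0.21 ± 0.07 in MDS3e MKT1e against Ancestral (0.0382). Ancestral replicate 1 carried much of both: without it they were -0.16 (0.105) and -0.10 (0.244). The first was also lost without either PMA1e MKT1e array (0.0631 and 0.122), and the second was kept only without Ancestral replicate 2. RPN3 fell by 0.25 ± 0.06 in PMA1e MKT1e against MDS3e MKT1e (0.0114), lost without PMA1e MKT1e replicate 1 (0.0906) or MDS3e MKT1e replicate 2 (0.081). RPN5 passed the F-test (adjusted p = 0.0474) but no comparison, and RPN7 passed neither.

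**Figure D3:**
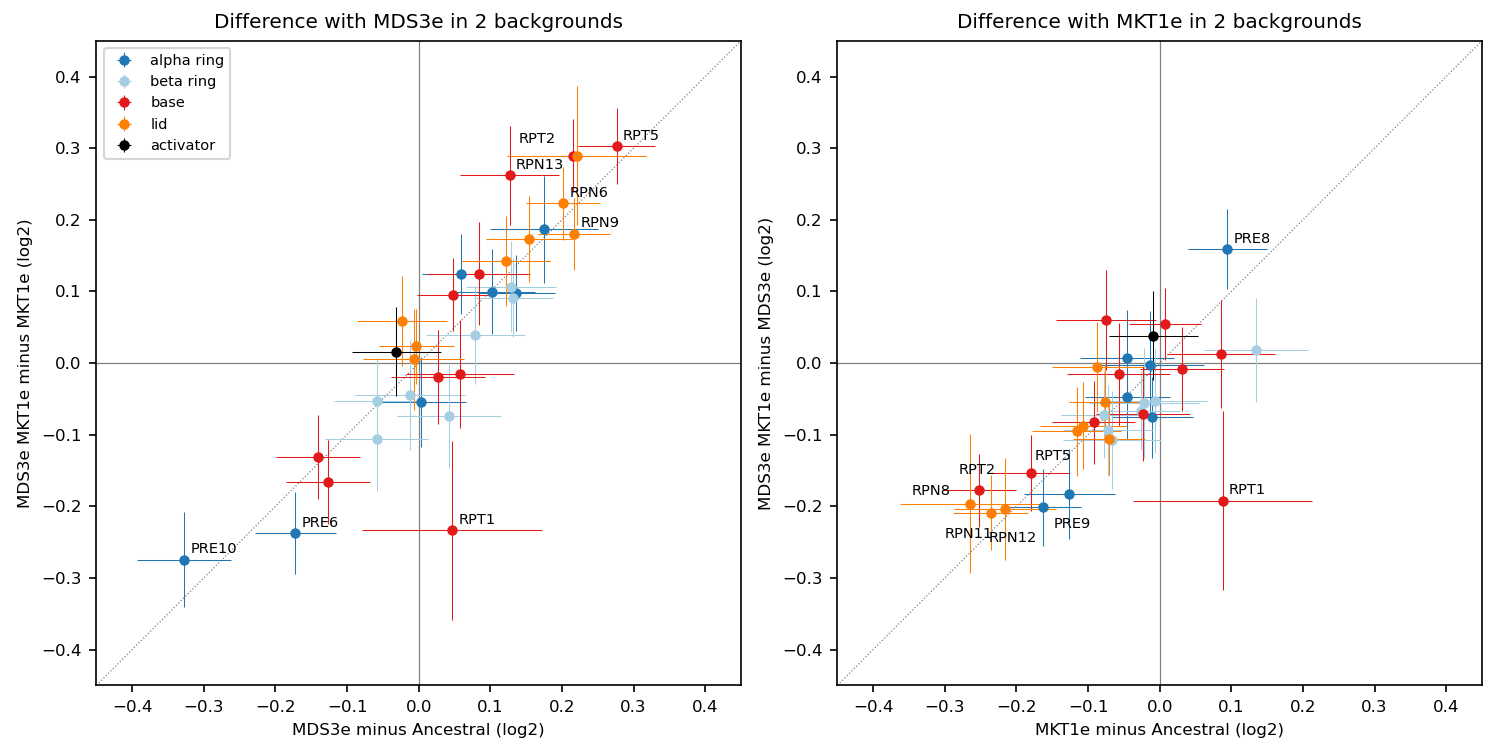
Difference made by an evolved allele alone (horizontal axis, log2 units) against the difference made by the same allele beside the other (vertical axis, log2 units), for MDS3e on the left and MKT1e on the right, with 1 point per proteasome gene, bars for the standard error of the fit and a dotted line where both differences are equal. RPT2, RPT5, RPN6 and RPN9 lie to the upper right and PRE10 and PRE6 to the lower left for MDS3e, and RPT2 and RPN11 lie to the lower left for MKT1e.

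The effect of each allele could be read in 2 backgrounds from comparisons whose means share no arrays. The calls in both came from 1 fit with 1 estimate of the spread per gene, so they are not independent. For MDS3e, 6 genes were called in the Ancestral background and 8 beside MKT1e. All 6 were called with the same sign in both, RPT2, RPT5, RPN6 and RPN9 higher and PRE6 and PRE10 lower, which is 100% of the shorter list and 75% of the longer. For all genes those shares were 65.2% and 62.2%. The sign of the difference was shared by 24 of 33 genes (72.7%), where 79.3% of all genes shared it. Across the 33 genes the 2 sets of differences had Pearson's r of 0.885 and Spearman's rho of 0.894, where all genes had 0.837 and 0.771. For MKT1e, 3 genes were called in the Ancestral background and 3 beside MDS3e, and 2 of them, RPT2 and RPN11, were called lower in both, which is 66.7% of each list. For all genes those shares were 58.1% and 68.4%. The sign was shared by 28 of 33 genes (84.8%), where 75.6% of all genes shared it, with r of 0.70 and rho of 0.695 across the 33 genes, and 0.812 and 0.722 across all genes. The genes are not independent replicates, since those in a comparison are read on the same 4 arrays. For both alleles the 33 genes therefore kept their signs at about the rate of all genes.

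The test of whether MDS3e and MKT1e acted additively, the interaction, called none of the 33 genes. The smallest adjusted p was 0.843, for RPT1, whose 95% interval of the interaction reached -0.67. Its estimate was -0.28 ± 0.18 (SE). The comparison of PMA1e MKT1e with MKT1e gave 95% intervals that reached -0.41 for RPT1 and 0.32 for RPN4 at their outer ends. Among the evolved genes themselves, PMA1 averaged 11.14 in PMA1e MKT1e, 10.76 in MDS3e MKT1e, 10.83 in MDS3e, 11.18 in MKT1e and 11.19 in Ancestral. MDS3 averaged 7.99, 7.89, 7.83, 7.94 and 7.99 in the same order of genotypes, and MKT1 averaged 8.58, 8.81, 9.03, 8.58 and 8.93. Evolved alleles need not change the level of their own transcript, so these levels do not check the labels.

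The 33 genes are scattered over 13 chromosomes, and only 2 pairs lie with no more than 2 genes between them. PRE4 and RPN12 on chromosome VI have 1 gene between them, and so do RPT4 and RPN8 on chromosome XV. In neither pair were both genes called.

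**Figure D4:**
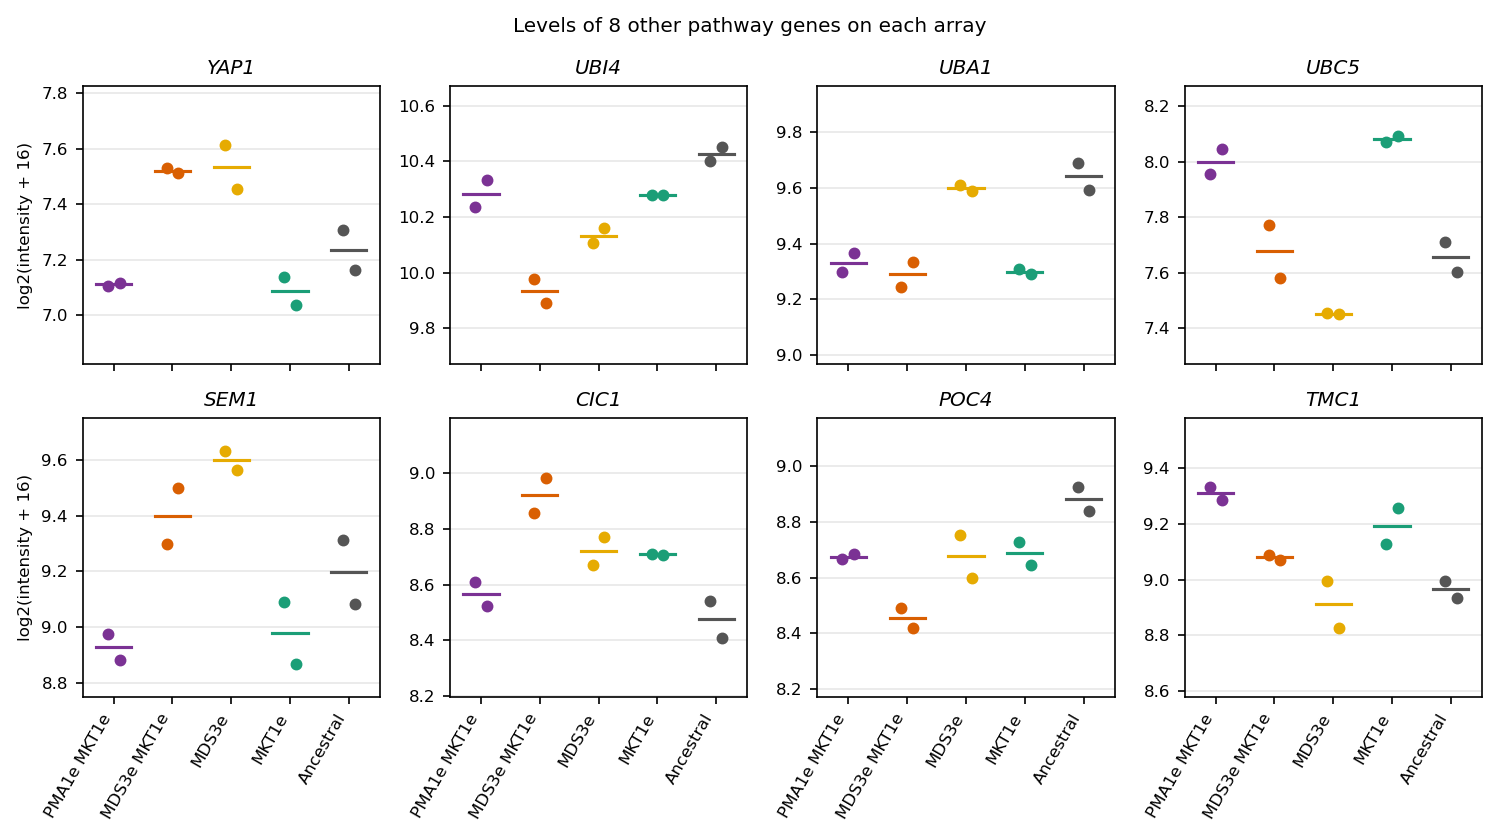
Level of 8 genes outside the 33 (log2 of intensity plus 16) on each array, with points for single arrays, short lines for genotype means and genotypes from PMA1e MKT1e on the left to Ancestral on the right. YAP1 and SEM1 are high in the strains with MDS3e, UBA1 is low in the strains with MKT1e, and UBI4 is lowest in MDS3e MKT1e.

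Genes that work beside the proteasome were counted in 3 further lists. Of the 4 transcription factors known to act on RPN4 (YAP1, PDR1, PDR3 and HSF1), PDR1 and PDR3 were not called in any comparison. HSF1, the heat shock factor, rose by 0.19 ± 0.06 in MDS3e MKT1e against Ancestral (limma adjusted p = 0.0403) and by 0.24 ± 0.06 against MKT1e (0.0201), and both calls were lost after median centring (0.274 and 0.0914). Leaving out MDS3e MKT1e replicate 1 also lost both (0.221 and 0.119), as did leaving out either Ancestral, PMA1e MKT1e or MDS3e array for the first (0.0577 to 0.144) and MKT1e replicate 1 for the second (0.122). YAP1, the oxidative stress factor, read 7.11 and 7.12 in PMA1e MKT1e, 7.53 and 7.51 in MDS3e MKT1e, 7.61 and 7.46 in MDS3e, 7.14 and 7.04 in MKT1e, and 7.31 and 7.17 in Ancestral. Its 4 arrays with MDS3e lay above the others. YAP1 rose by 0.43 ± 0.07 in MDS3e MKT1e against MKT1e (limma adjusted p = 0.00218) and fell by 0.41 ± 0.07 in PMA1e MKT1e against MDS3e MKT1e (0.00231), both kept under all settings, and RPN4 was not called in either comparison. YAP1 also rose by 0.30 ± 0.07 in MDS3e (0.0143) and by 0.28 ± 0.07 in MDS3e MKT1e (0.0101) against Ancestral. The first was lost without MDS3e replicate 1 (0.114) or Ancestral replicate 2 (0.085), and the second without MDS3e MKT1e replicate 1 (0.0509) or Ancestral replicate 2 (0.068).

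Of 19 assembly and accessory genes, 3 rose and 2 fell in MKT1e, 2 rose and 1 fell in MDS3e, 2 rose and 2 fell in MDS3e MKT1e, and 3 rose and 2 fell in PMA1e MKT1e, each against Ancestral. That is 26.3%, 15.8%, 21.1% and 26.3% of the list in these 4 comparisons, where 20.3%, 25.2%, 38.7% and 21.6% of all genes were called. In MDS3e MKT1e against MDS3e and against MKT1e, 15.8% and 26.3% of the list were called, where 17.2% and 26.4% of all genes were. PMA1e MKT1e against MDS3e MKT1e gave 42.1% of the list, with 4 that rose and 4 that fell, where 31.4% of all genes were called. SEM1 encodes a small further lid subunit. It read 8.98 and 8.88 in PMA1e MKT1e, 9.30 and 9.50 in MDS3e MKT1e, 9.63 and 9.57 in MDS3e, 9.09 and 8.87 in MKT1e, and 9.31 and 9.08 in Ancestral, so that MDS3e was highest, as for RPT2 and RPN6. It rose by 0.40 ± 0.10 in MDS3e against Ancestral (limma adjusted p = 0.0167), lost without either MDS3e array (0.0999 and 0.0585) or Ancestral replicate 2 (0.105). It rose by 0.42 ± 0.10 in MDS3e MKT1e against MKT1e (0.0126), lost without replicate 2 of MDS3e MKT1e (0.1) or of MKT1e (0.107). It fell by 0.47 ± 0.10 in PMA1e MKT1e against MDS3e MKT1e (0.00641), lost without replicate 2 of either genotype (0.0542 and 0.0573). POC4, a chaperone of core assembly, and BLM10, an alternative cap of the core, fell by 0.43 ± 0.07 and 0.36 ± 0.06 in MDS3e MKT1e against Ancestral (0.000736 and 0.00167). CIC1, a nucleolar protein reported to bind the proteasome, rose by 0.45 ± 0.07 in that comparison (0.000709). TMC1, a stress-induced gene under Rpn4, rose by 0.34 ± 0.07 in PMA1e MKT1e against Ancestral (0.00522). These last 4 calls were kept under all settings. TMC1 also rose by 0.23 in MKT1e against Ancestral (limma adjusted p = 0.0425), a call kept under 8 of 18 settings, and RPN4 differed by -0.01 there. In PMA1e MKT1e against MKT1e, 0 of the 19 genes were called. Whether TMC1 followed RPN4 was not tested.

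Of 28 genes of ubiquitin transfer and delivery, 1 rose and 2 fell in MKT1e, 5 rose and 2 fell in MDS3e, 3 rose and 5 fell in MDS3e MKT1e, and 2 rose and 2 fell in PMA1e MKT1e, each against Ancestral. That is 10.7%, 25%, 28.6% and 14.3% of the list in these 4 comparisons, at or below the shares of all genes given for the assembly list. In MDS3e MKT1e against MDS3e and against MKT1e, 10.7% and 17.9% of the list were called. PMA1e MKT1e against MDS3e MKT1e gave 25%, and these 3 shares were also below those of all genes. UBA1, the ubiquitin-activating enzyme, read 9.30 and 9.37 in PMA1e MKT1e, 9.24 and 9.34 in MDS3e MKT1e, 9.61 and 9.59 in MDS3e, 9.31 and 9.29 in MKT1e, and 9.69 and 9.59 in Ancestral. The 6 arrays with MKT1e lay below the 4 without it. UBA1 fell by 0.31 ± 0.06 in PMA1e MKT1e (limma adjusted p = 0.00363), by 0.35 ± 0.06 in MDS3e MKT1e (0.00113) and by 0.34 ± 0.06 in MKT1e (0.00209) against Ancestral, and by 0.31 ± 0.06 in MDS3e MKT1e against MDS3e (0.00453). All 4 calls were kept under all settings. UBI4, the polyubiquitin gene induced by stress, read 10.23 and 10.33 in PMA1e MKT1e, 9.98 and 9.89 in MDS3e MKT1e, 10.11 and 10.16 in MDS3e, 10.28 and 10.28 in MKT1e, and 10.40 and 10.45 in Ancestral. Its MDS3e MKT1e arrays were the lowest, with a fall of 0.49 ± 0.06 against Ancestral (0.000127) and of 0.34 ± 0.06 against MKT1e (0.00255), both kept under all settings. UBI4 also fell by 0.29 in MDS3e against Ancestral (limma adjusted p = 0.00647), kept under 17 of 18 settings. The fall of 0.20 in MDS3e MKT1e against MDS3e (0.0396) was kept under 8 of 18. Other yeast genes also encode ubiquitin, so the probe set of UBI4 may read them too. UBC5, a ubiquitin-conjugating enzyme closely related to UBC4, rose by 0.42 ± 0.07 in MKT1e against Ancestral (0.00186) and fell by 0.40 ± 0.07 in MDS3e MKT1e against MKT1e (0.00313). Both calls were kept under all settings, and a probe set may not separate UBC5 from UBC4.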

How the data were processed

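Gene expression was read on 10 one-colour Affymetrix arrays, 1 per culture. Per the submitters' processing notes the authors used Affymetrix Expression Console, and its algorithm, its scaling and the genome build are not given in the sources used. The deposited values are intensities on a linear scale, 1 per probe set and array. The mean intensity of each array, after trimming 2% of probe sets at each end, was 149.9 on all arrays, so the values are relative to a common total and cannot show a change in total mRNA. Of 10928 probe sets, 5498 named 1 S. cerevisiae gene and were reduced to 5449 genes by taking the brightest probe set of each. Background was set at the 95th percentile of values on probe sets for another yeast species.

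Linear models with 1 mean per genotype were fitted to log2(intensity + 16) of all 5449 genes and 10 arrays (limma 3.58.1, R 4.3.3). Tests were two-sided, with Benjamini-Hochberg adjusted p under 0.05 over all genes for a call, and errors are standard errors of that fit. Because each comparison draws its spread from all 10 arrays, precision is limited by the number of arrays, 2 per genotype. The fit was tested on simulated data with independent noise of 1 SD per gene in all genotypes. That test did not cover an unequal spread of the genotypes or noise shared between arrays. Replicates are labelled as biological, and nothing more is said of their source. Replicate numbers were not treated as pairs, since no label gives them a shared batch. The correlations of replicate differences between genotypes were 0.389, 0.242 and 0.191 among MDS3e, MKT1e and Ancestral, and from -0.204 to 0.0287 in the 7 pairs that include MDS3e MKT1e or PMA1e MKT1e.

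The genes and lists were chosen with earlier results of these data known. The rule for named genes took RPN4, PRE3, PUP1 and PRE2 in every comparison, up to 6 called members per comparison by size, the members with the widest and narrowest range of genotype means, and up to 4 called genes of each other list. The rule's brightest and dimmest members are not named, because levels of different probe sets were not compared. Other called members were named after their values were seen, and from the other lists mostly genes that kept their calls under every setting. The alternatives were pseudocounts of 1 and 64, median centring, quantile normalization, leaving out genes below background, averaging probe sets of a gene, a replicate block, a fit of the compared genotypes alone and leaving out each array in turn. Promoter and protein sequences were not used here.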

Additional observations from a re-analysis of the deposited data

How the results depend on the processing

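Of the 43 calls of a proteasome gene in a comparison, 10 were kept under all 18 alternatives and 33 were lost without at least 1 array, while no called difference changed sign. Median centring lost 11 calls, quantile normalization 6 and a fit of the compared genotypes alone 19. The counts of called genes in MKT1e against Ancestral, 3 as reported, were 5 with a pseudocount of 64, 6 after median centring and 0 in a fit of the 2 genotypes alone. In that last fit the counts were 2 for MDS3e, 3 for MDS3e MKT1e and 1 for PMA1e MKT1e against Ancestral; these fits have fewer arrays behind the spread. Median centring gave 8 for PMA1e MKT1e against Ancestral, 5 for MDS3e MKT1e against MDS3e and 5 for MDS3e MKT1e against MKT1e, and a pseudocount of 64 gave 5 for MDS3e MKT1e against MDS3e, and the cause was not tested. With each array left out in turn, the counts ran from 0 to 7 for MKT1e, 1 to 7 for MDS3e, 3 to 7 for MDS3e MKT1e and 1 to 7 for PMA1e MKT1e against Ancestral. They ran from 0 to 4 for MDS3e MKT1e against MDS3e, 2 to 12 for MDS3e MKT1e against MKT1e, 4 to 12 for PMA1e MKT1e against MDS3e MKT1e and 11 to 18 for the F-test, and stayed at 0 for the interaction and for PMA1e MKT1e against MKT1e. A genotype left with 1 array was assumed to vary like the others. With the replicate number as a block, the counts were 15 for the F-test, 4, 5, 7 and 6 for MKT1e, MDS3e, MDS3e MKT1e and PMA1e MKT1e against Ancestral, 3 and 8 for MDS3e MKT1e against MDS3e and MKT1e, 11 for PMA1e MKT1e against MDS3e MKT1e, and 0 for the other 2 comparisons. With the block, RPT2 in MDS3e MKT1e against MDS3e, PRE6 in MDS3e against Ancestral and RPN6 in MDS3e MKT1e against Ancestral had limma adjusted p of 0.0508, 0.0624 and 0.0531, and the other 40 calls were kept. All 33 genes were above the background limit on every array, and the number of arrays limited the precision. Over all genes, median centring turned the split of calls in MDS3e MKT1e against Ancestral to 785 higher and 1423 lower, and in MDS3e against Ancestral to 504 higher and 845 lower. The counts over all genes also moved with the array left out.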
